A study of Homo sapiens with 12 samples.

Results

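IFNB1, IRF7 and TRIM22 are 3 genes of the type I interferon system, followed here through 2 glioma cell lines treated with siRNAs against PARK2. They were taken as every probe set of the value table annotated to 1 of these gene symbols. That gave 3 of 16376 probe sets, 1 for each gene (208173_at for IFNB1, 208436_s_at for IRF7 and 213293_s_at for TRIM22), and 3 of the 8545 genes tested.

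Type I interferons are signalling proteins that cells secrete when sensors meet foreign nucleic acid. IFNB1 encodes interferon beta, made early by many cell types, IRF7 encodes a transcription factor that drives interferon genes and is itself interferon-induced, and TRIM22 encodes an interferon-induced ubiquitin ligase of the tripartite motif family with antiviral activity. Interferon beta signals through the receptor IFNAR1 and IFNAR2, the kinases JAK1 and TYK2 and the complex ISGF3, which switches on interferon-stimulated genes. PARK2 encodes parkin, a ubiquitin ligase best known for tagging damaged mitochondria.

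SNB19 and SF539 are established human glioma lines. Each line was transfected by lipid with scramble siRNA, PARK2 siRNA#1 or PARK2 siRNA#2 and collected 48 h later, and total RNA was hybridised to Affymetrix U133A 2.0 arrays, 2 for each of the 6 groups (12 arrays). The scramble groups therefore also went through transfection with a double-stranded RNA, and with no untransfected array in the set, a gap between PARK2 siRNA and scramble cannot be assigned to either side. The labels do not say whether the replicates of a group were separate cultures, so the p-values cover only the spread between these arrays, which may be technical. PARK2 itself is not analysed here, so its knockdown was not checked. Bulk RNA does not tell apart fewer expressing cells from less RNA in each cell.

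The upstream sequence of IFNB1 is shown first because its control region is where the factors followed here act. From the RefSeq promoter table (GRCh38.p14, minus strand), the 250 bases just before the transcription start of IFNB1 lie at chr9:21077943-21078192. The 120 bases before the starts of IFNA21 (chr9:21166661-21166780) and IFNA4 (chr9:21187588-21187707), alpha interferon genes among its nearest measured neighbours, are given for comparison. Capitals mark matches to the interferon regulatory factor motif AANNGAAA and, in IFNB1, also to the NF-kB consensus and the TATA box letters TATAAA.

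IFNB1: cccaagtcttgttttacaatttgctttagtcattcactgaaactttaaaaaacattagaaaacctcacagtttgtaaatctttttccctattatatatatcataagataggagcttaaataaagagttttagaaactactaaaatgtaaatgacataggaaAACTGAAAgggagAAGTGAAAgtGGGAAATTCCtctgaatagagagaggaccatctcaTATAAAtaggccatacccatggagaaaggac
IFNA21: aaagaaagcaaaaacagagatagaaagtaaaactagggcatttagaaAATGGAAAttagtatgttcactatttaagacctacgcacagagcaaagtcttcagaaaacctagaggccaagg
IFNA4: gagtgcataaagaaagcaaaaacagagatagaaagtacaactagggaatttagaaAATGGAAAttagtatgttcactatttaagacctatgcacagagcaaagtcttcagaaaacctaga

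Reading from 5′ to 3′, IFNB1 had the motif AANNGAAA at 89 to 82 and at 76 to 69 bases before the start, the NF-kB match from 66 to 57 and the TATA letters from 31 to 26. These sites did not overlap each other. Searched on both strands of the 250 bases before each start, AANNGAAA occurred in 20.3% of 35116 promoters, the NF-kB consensus in 5.21%, TATAAA in 10.7%, and both AANNGAAA and the NF-kB consensus in 0.72%. IFNA21 and IFNA4 each had 2 more AANNGAAA matches further upstream than the bases shown. Of the 11 other interferon genes with both a value and a promoter, 10 held AANNGAAA and 0 the NF-kB consensus. Of 9 interferon-stimulated genes, 9 held AANNGAAA and 7 the longer core GAAANNGAA, which overlaps the former by design and was found in 6.88% of promoters. A match describes letters and is not evidence of binding.

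Values are on the log2 scale, where a step of 1 is a doubling, and the medians of the arrays ran from 5.94 to 6.14. The 2 arrays of a group had a Pearson r of 0.991 to 0.998 across probe sets, which do not count as replicates. Their SD per gene, each taken at its brightest probe set, had a median of 0.132 in the SF539 siRNA#2 group and of 0.0616 to 0.0852 in the others. The lower quartile of the arrays, 3.93 to 4.02, serves below as the level near which little signal can be told from background, since the table has no detection call. The glial markers GFAP, S100B, SOX2 and FABP7 averaged 6.90, 7.38, 9.52 and 10.56 in SNB19 with scramble but 3.93, 3.80, 4.73 and 3.79 in SF539, while VIM and CD44 were high in both lines (12.06 to 13.63 over all groups). The mean of the 8 measured glial markers was 8.35, 9.05 and 9.19 in SNB19 with scramble, siRNA#1 and siRNA#2, against 5.98 to 6.15 in SF539. GFAP, FABP7 and S100B were higher in SNB19 with the PARK2 siRNAs, by 3.58, 1.33 and 1.00 (limma adjusted p = 1.53e-07, 0.000240 and 0.000641). SOX2 went the other way there, by -0.41 (limma adjusted p = 0.0457). OLIG2 and AQP4 were below the lower quartile in all groups. The part of these marker changes in the results below was not tested. The mean of 8 measured leukocyte markers stayed at 3.95 to 4.04 in all 6 groups, with the pan-leukocyte gene PTPRC at 2.76 to 3.03. CD14, LYZ and SPI1 read 2.62 to 4.01. ITGAM (4.93 to 5.21), LILRA4 (4.91 to 5.35), CD3D (4.26 to 4.61) and CD79A (4.28 to 4.37) were above the lower quartile of the arrays in all groups.

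IFNB1 was lower with either PARK2 siRNA than with scramble in both lines. In SNB19 the scramble arrays read 5.52 and 5.11, the siRNA#1 arrays 3.82 and 4.15, and the siRNA#2 arrays 3.75 and 3.98. In SF539 the scramble arrays read 6.22 and 7.02, the siRNA#1 arrays 4.80 and 4.64, and the siRNA#2 arrays 4.98 and 4.54. In each line the lower scramble array stood above the highest of the 4 PARK2 siRNA arrays, so the groups did not overlap. The share of all genes without overlap was not counted, and IRF7 in SF539, which was not called, did not overlap either. With the PARK2 siRNAs the SNB19 arrays had reached the lower quartile of the array, where the size of a fall is bounded by background. The SF539 arrays stayed above it, at 4.54 to 4.98. That range overlaps group means of the leukocyte markers CD3D (4.26 to 4.61) and LILRA4 (4.91 to 5.35). Background may therefore bound the fall in SF539 too.

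The mean of both siRNAs minus scramble was -1.39 ± 0.22 in SNB19 (log2, SE of the fit, 2 arrays per group, 95% interval -1.89 to -0.89, limma adjusted p = 0.00101), a 2.62-fold fall, or at least 2.45-fold with no array counted below its lower quartile. In SF539 it was -1.88 ± 0.22 (95% interval -2.38 to -1.38, limma adjusted p = 0.000943), a 3.69-fold fall. In SNB19, 17.4% of the 8545 genes were called lower and 15.5% higher at an adjusted p under 0.05. In SF539 the shares were 4.01% lower and 5.80% higher. Of the calls in SNB19, 47.1% were higher, and 64.1% when each array was centred on its median, a step that moved the median change of all genes from -0.01 to 0.09. The same centring took the share of higher calls in SF539 from 59.1% to 38.0%. IFNB1 fell under both scalings.

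Each siRNA was also set against scramble alone. In SNB19 IFNB1 changed by -1.33 with siRNA#1 (adjusted p = 0.00383) and by -1.45 with siRNA#2 (adjusted p = 0.00214), in comparisons that called 26.1% and 29.7% of genes. In SF539 it changed by -1.90 with siRNA#1 (adjusted p = 0.00582) and by -1.86 with siRNA#2 (adjusted p = 0.00182), in comparisons that called 2.73% and 15.2% of genes. The siRNAs share their scramble arrays, so these are not independent. The siRNA#1 call in SF539 was lost without siRNA#1 replicate 2 (-1.82, adjusted p = 0.0760) and in a fit of the SF539 arrays alone (-1.90, adjusted p = 0.108).

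**Figure D1:**
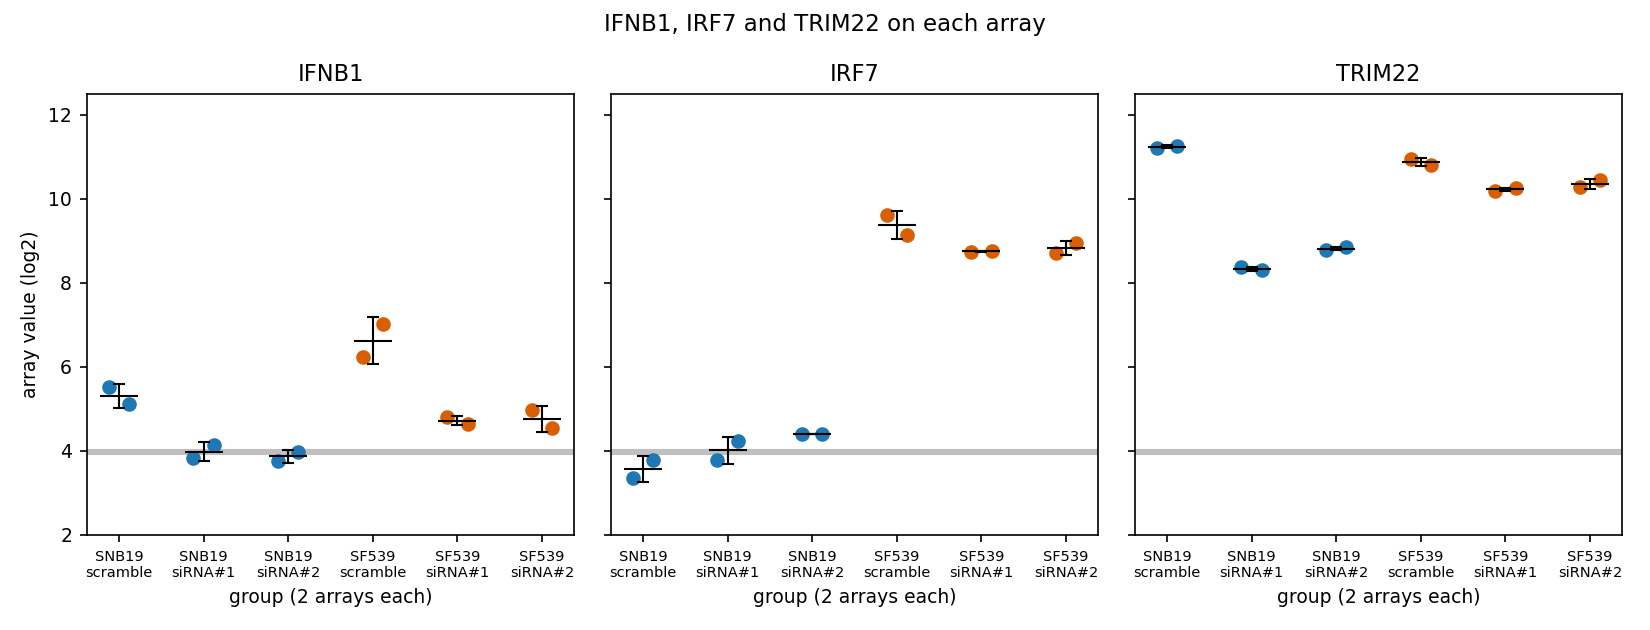
Log2 value (vertical axis) of IFNB1, IRF7 and TRIM22 on each of the 12 arrays by group, SNB19 in blue and SF539 in orange; horizontal bars are means of 2 arrays, error bars their SD, and the grey band spans the lower quartiles of the arrays (3.93 to 4.02). IFNB1 was highest with scramble in either line, IRF7 was near the band in SNB19 and between 8.71 and 9.61 in SF539, and TRIM22 with PARK2 siRNAs lay between 8.30 and 8.84 in SNB19 and between 10.19 and 10.44 in SF539.

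IRF7 was set apart mainly by the cell line. Its SNB19 arrays read 3.35 and 3.78 with scramble, 3.78 and 4.24 with siRNA#1, and 4.39 and 4.40 with siRNA#2. Its SF539 arrays read 9.61 and 9.14 with scramble, 8.73 and 8.75 with siRNA#1, and 8.71 and 8.94 with siRNA#2. Within SNB19 the scramble arrays were the lowest, but the higher of them lay 0.0018 below the lower siRNA#1 array, and the scramble mean of 3.56 was below the lower quartile of the arrays. Within SF539 the scramble arrays were the highest, and the 4 PARK2 siRNA arrays lay between 8.71 and 8.94.

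In SNB19 the mean of both siRNAs was 0.64 ± 0.17 above scramble (95% interval 0.25 to 1.03, limma adjusted p = 0.0178), a 1.56-fold rise near background. That call was lost without SNB19 scramble replicate 1 (0.42, adjusted p = 0.199) or without siRNA#1 replicate 2 (0.53, adjusted p = 0.0511). In SF539 the difference was -0.59 ± 0.17 (95% interval -0.98 to -0.20) with an adjusted p of 0.0607 and was not called. Its adjusted p ran from 0.0416 to 0.171 over 9 alternatives, passing in 4 (median centring, quantile normalization, a trended robust prior and a filter on the dimmest 40% of genes), with 0.124 in a fit of the SF539 arrays alone and 0.171 with array weights. Without SF539 scramble replicate 1 the difference was -0.36 (adjusted p = 0.395). By single siRNA, IRF7 differed from scramble by 0.45 with siRNA#1 (adjusted p = 0.133) and by 0.83 with siRNA#2 (adjusted p = 0.0109) in SNB19. In SF539 the differences were -0.63 (adjusted p = 0.141) and -0.55 (adjusted p = 0.0933). The siRNA#2 call in SNB19 was lost without scramble replicate 1 (adjusted p = 0.0968), siRNA#2 replicate 1 (adjusted p = 0.0539) or siRNA#2 replicate 2 (adjusted p = 0.0588).

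TRIM22 fell in both lines, and by far more in SNB19. The SNB19 arrays read 11.21 and 11.26 with scramble, 8.36 and 8.30 with siRNA#1, and 8.78 and 8.84 with siRNA#2. The SF539 arrays read 10.95 and 10.81 with scramble, 10.19 and 10.25 with siRNA#1, and 10.27 and 10.44 with siRNA#2. All of these are well above the lower quartile of the arrays, replicates lay close together, and scramble and PARK2 siRNA arrays did not overlap in either line. For how many of all genes this holds was not counted.

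The mean change was -2.66 ± 0.08 in SNB19 (95% interval -2.84 to -2.49, limma adjusted p = 6.39e-09), a 6.33-fold fall. In SF539 it was -0.59 ± 0.08 (95% interval -0.77 to -0.42, limma adjusted p = 0.00179), a 1.51-fold fall. With siRNA#1 and siRNA#2 taken singly, TRIM22 changed by -2.90 (adjusted p = 1.22e-08) and -2.42 (adjusted p = 5.01e-08) in SNB19. In SF539 the single changes were -0.66 (adjusted p = 0.00582) and -0.52 (adjusted p = 0.00496). Those SF539 calls did not hold in a fit of the SF539 arrays alone (adjusted p = 0.128 for siRNA#1 and 0.0684 for siRNA#2). The siRNA#1 call was also lost without siRNA#1 replicate 1 (adjusted p = 0.0641) or replicate 2 (adjusted p = 0.0650), and the siRNA#2 call with array weights (adjusted p = 0.0567).

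**Figure D2:**
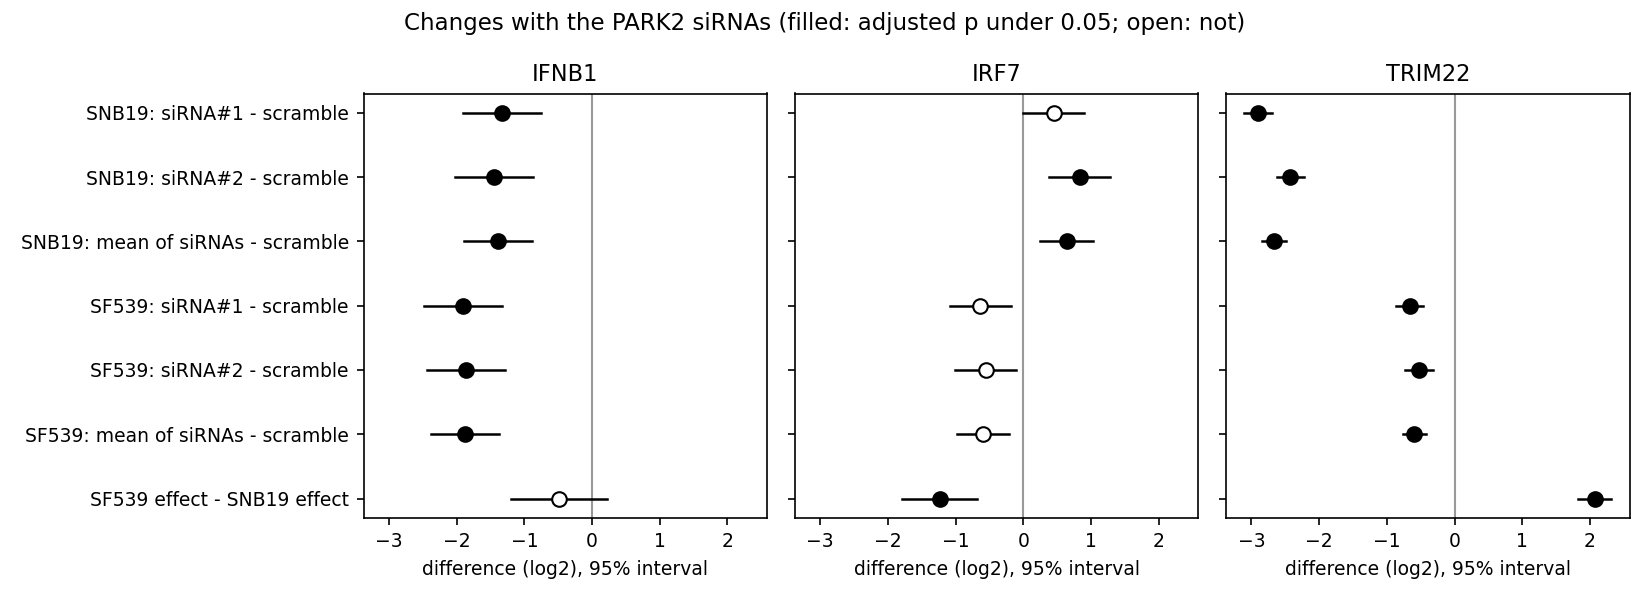
Log2 differences (horizontal axis) for each gene and comparison, with 95% intervals of the limma fit; filled points have an adjusted p under 0.05. Each line has rows for siRNA#1, siRNA#2 and their mean against the same scramble arrays, so these rows are not independent. In them IFNB1 and TRIM22 lie left of 0 and are filled, and IRF7 lies right of 0 in SNB19 and left in SF539. The lowest row gives the SF539 effect minus the SNB19 effect (-0.49, -1.24 and 2.07).

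The PARK2 siRNAs were compared with each other to see where the genes followed 1 sequence more than the other. In SNB19, where 6.06% of genes differed between the siRNAs, TRIM22 was 0.48 higher with siRNA#2 (95% interval 0.28 to 0.68, limma adjusted p = 0.0145). That call rested on every array, with adjusted p of 0.0817 and 0.111 without siRNA#1 replicate 1 or 2 and of 0.0841 and 0.112 without siRNA#2 replicate 1 or 2. IFNB1 differed by -0.12 (95% interval -0.70 to 0.46, adjusted p = 0.874) and IRF7 by 0.38 (95% interval -0.07 to 0.83, adjusted p = 0.346). In SF539, where 2.72% of genes differed, the differences were 0.04 for IFNB1 (95% interval -0.54 to 0.62), 0.08 for IRF7 (95% interval -0.37 to 0.53) and 0.14 for TRIM22 (95% interval -0.06 to 0.34), none of them called (adjusted p from 0.392 to 0.943). These intervals allow differences of up to about the size printed and do not show that the siRNAs act alike.

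With scramble the lines already differed in all 3 genes, as did 49.3% of genes. IFNB1 was 1.31 ± 0.26 higher in SF539 (2.48-fold, limma adjusted p = 0.00189). IRF7 was 5.81 ± 0.20 higher in SF539 (limma adjusted p = 8.77e-09). Its SNB19 level was below the lower quartile, so the fold is a bound of at least 41.7-fold, taken against that quartile. TRIM22 was 0.35 ± 0.09 lower in SF539 (log2 difference -0.35, limma adjusted p = 0.00823). The TRIM22 call was lost without SF539 scramble replicate 2 (-0.28, adjusted p = 0.0594) and with median centring (-0.18, adjusted p = 0.0984), under which the median difference over all genes went from 0.04 to 0.21 and higher genes made up 66.8% of calls instead of 49.9%.

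With the PARK2 siRNAs, where 54.3% of genes differed between lines, IFNB1 was 0.81 (adjusted p = 0.00331), IRF7 4.58 (adjusted p = 1.35e-09) and TRIM22 1.72 higher in SF539 (adjusted p = 5.45e-09). TRIM22 thus stood lower in SF539 than in SNB19 with scramble and higher with PARK2 siRNAs. Culture medium differed between the lines per the labels, so line and medium cannot be told apart.

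The order of the 6 groups differed from gene to gene. For IFNB1 the means ran from SF539 scramble (6.62) through SNB19 scramble (5.31), SF539 siRNA#2 (4.76), SF539 siRNA#1 (4.72) and SNB19 siRNA#1 (3.98) to SNB19 siRNA#2 (3.87). The arrays of neighbouring groups overlapped between the siRNA pair of either line, and SNB19 scramble cleared SF539 siRNA#2 by 0.13 at the nearest arrays. For IRF7 the 3 SF539 groups came first (9.38, 8.82 and 8.74 for scramble, siRNA#2 and siRNA#1), followed by SNB19 siRNA#2 (4.40), siRNA#1 (4.01) and scramble (3.56). The lowest SF539 array read 8.71 and the highest SNB19 array 4.40. For TRIM22 the order was SNB19 scramble (11.23), SF539 scramble (10.88), SF539 siRNA#2 (10.36), SF539 siRNA#1 (10.22), SNB19 siRNA#2 (8.81) and SNB19 siRNA#1 (8.33). Its neighbours did not overlap, though the SF539 siRNA arrays came within 0.027 of each other.

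The effect of the PARK2 siRNAs was compared between the lines by an interaction term, which was called for 19.1% of genes. For IFNB1 the SF539 effect minus the SNB19 effect was -0.49 (95% interval -1.20 to 0.21, limma adjusted p = 0.323), so a difference between lines was not detectable, and the SNB19 PARK2 siRNA arrays were at the lower quartile. It was -0.89 without SF539 scramble replicate 1 (adjusted p = 0.0642) and -0.09 without replicate 2 (adjusted p = 0.852). For IRF7 it was -1.24 (limma adjusted p = 0.00686), with arrays above scramble in SNB19 and below it in SF539. The IRF7 scramble mean in SNB19 (3.56) was below the lower quartile, so that rise rests on values near background. The IRF7 difference in SF539 was not called (limma adjusted p = 0.0607). For TRIM22 the interaction term was 2.07 (limma adjusted p = 1.21e-06), the fall being larger in SNB19.

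The other genes of the pathway were followed through 8 lists, of which 86 of 106 genes had a value. The lists were chosen with earlier results of these data known, so shares above those of all genes are not independent evidence. In SNB19 9 rose (10.5%, beside 15.5% of all genes) and 34 fell (39.5%, beside 17.4%), with a median change of -0.12 beside -0.01 for all genes. With each array centred on its median, 14 rose and 32 fell. In SF539 6 rose (6.98%, beside 5.80%) and 7 fell (8.14%, beside 4.01%), with a median of -0.08 beside -0.02. A fit of the SF539 arrays alone called 1 higher and 2 lower (TRIM16, OAS1 and RSAD2), and leaving out single arrays gave 2 to 10 higher and 3 to 11 lower. Fewest were higher (2) without SF539 scramble replicate 2, fewest lower (3) without scramble replicate 1, and most in either direction (10 and 11) without SF539 siRNA#2 replicate 1.

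Sensors and adaptors lie upstream of IFNB1. Of 10 measured, 6 fell (60%, beside 17.4% of all genes) and 1 rose (10%, beside 15.5%) in SNB19, with a median change of -0.41. All arrays were collected at 48 h, so whether these genes changed before or after IFNB1 was not tested. TLR3, the endosomal receptor of double-stranded RNA, changed by -4.05 (from 8.21 with scramble to 3.79 and 4.53). Its siRNA#1 level was below the lower quartile of the arrays, so the fall was at least 3.96 against that quartile. IFIH1, the cytosolic sensor MDA5, changed by -2.40, the DNA sensor IFI16 by -1.52 and the adaptor MYD88 by -1.13. TICAM1 and TRAF6, further adaptors of this route, changed by -0.42 and -0.40, and TANK, a scaffold of the kinases below them, rose by 0.45; these 3 were named after their values were seen. All 3 calls were lost without SNB19 scramble replicate 2 (adjusted p = 0.0591, 0.0863 and 0.224). In SF539 TLR3 fell by 0.65 and MYD88 fell by 0.55, IKBKE, a kinase that phosphorylates IRF3 and IRF7, rose by 0.34, and IFIH1 changed by -0.43 without passing (adjusted p = 0.0584). In the SF539 arrays alone TLR3, MYD88 and IKBKE had limma adjusted p of 0.0620, 0.0501 and 0.143. The TLR3 call was also lost without either SF539 scramble array (-0.64 and -0.66). The IKBKE call was also lost with the mean of its probe sets (0.16, limma adjusted p = 0.203).

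Among 6 other measured interferon regulatory factors 4 fell in SNB19 (66.7%, beside 17.4% of all genes). In SF539 0 fell, beside 4.01% of all genes, a share at which 0 of 6 says little. IRF1, an interferon-induced activator, changed by -1.86, its antagonist IRF2 by -0.97, IRF5 by -0.42 and IRF3, which with IRF7 acts directly on IFNB1, by -0.40. The IRF5 call was lost with the mean of its probe sets (-0.18, limma adjusted p = 0.104) and without SNB19 scramble replicate 2 (-0.35). The IRF3 call was lost with median centring and quantile normalization (adjusted p = 0.0748 and 0.0687) and without 4 of the 12 arrays in turn. In SF539 these 4 differed from scramble by -0.17 to -0.08, and 0 of the 6 had an unadjusted limma p under 0.05, beside 2142 of 8545 genes. Of 7 factors that build the enhanceosome on the IFNB1 promoter, ATF2 rose by 0.78 in SNB19 and HMGA1, an architectural protein that bends that DNA, fell by 0.98 in SF539. The ATF2 call was lost with the mean of its probe sets (0.14, adjusted p = 0.427), and the HMGA1 call in the SF539 arrays alone (adjusted p = 0.105). The NF-kB subunits RELA and NFKB1 changed by -0.23 and -0.12 in SNB19 and by -0.13 and 0.07 in SF539, and none of these passed.

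The other interferon genes were dim throughout. Of 13 measured, 1 rose in SNB19 (7.69%, beside 15.5% of all genes), IFNA17 by 0.59 (from 3.89 with scramble to 4.41 and 4.56). In SF539 0 passed the limma test, beside 5.80% higher and 4.01% lower of all genes. There 1 had an unadjusted p under 0.05, beside 2142 of 8545 genes. The 12 other than IFNA17 had group means between 2.45 and 3.79, under the lower quartile of the arrays. The alpha interferon genes share sequence, so the signal of 1 gene cannot be assigned to it with certainty.

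Downstream of interferon beta, the receptor gene IFNAR1 rose by 0.68 and the kinase gene JAK1 by 0.62 in SNB19, while IRF9, the DNA-binding subunit of ISGF3, changed by -2.87 (from 9.07 to 6.22 and 6.17). In SF539 0 of these 5 measured genes passed the limma test, beside 5.80% higher and 4.01% lower of all genes. There 2 of the 5 had an unadjusted p under 0.05, beside 2142 of 8545 genes, and IRF9 read 9.22, 9.01 and 9.08. Of 9 negative regulators, SOCS1, an inhibitor of JAK kinases, fell by 1.39 and TNFAIP3, an inhibitor of NF-kB signalling, fell by 0.53 in SNB19, where the phosphatase gene PTPN11 rose by 1.10 and the deubiquitinase gene CYLD by 0.96. CYLD also rose by 0.48 in SF539, a call lost with 1 line alone (adjusted p = 0.156), the mean of probe sets (0.136) and array weights (0.0676).

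Interferon-stimulated genes fell in SNB19. All 9 measured fell there (beside 17.4% of all genes), with a median of -6.19. In SF539 2 of 9 fell (22.2%, beside 4.01%), with a median of -0.12. The list was chosen with earlier results of these data known, so these counts are not independent evidence. In SF539 IFIT1 was below the lower quartile in all groups and IFIT3 near it, so neither could fall by much. OAS1, which makes a second messenger that activates RNase L, changed by -6.34 in SNB19 and by -0.70 in SF539, and the antiviral gene RSAD2 by -6.19 and -1.22. With the PARK2 siRNAs in SNB19, OAS1 (4.13 and 4.17), RSAD2 (3.45 and 3.75) and, with siRNA#1, IFI27 (3.98) were near or below the lower quartile. The falls of these genes there, and the differences between lines that use them, are therefore bounded by background. For RSAD2 the fall was at least 5.80 against that quartile. IFIT3 changed by -6.02 in SNB19 but read 4.58, 4.67 and 4.70 in SF539, and IFIT1, named after its values were seen, read 12.87 with scramble in SNB19 and 2.97 in SF539. IFNB1 fell in both lines, and the test of the difference between lines passed for IFI27 (8.54), BST2 (6.35), IFIT3 (6.12), OAS1 (5.64), ISG15 (5.04) and RSAD2 (4.97).

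TRIM22 belongs to a large family, of which 27 other genes were measured. In SNB19 12 fell (44.4%, beside 17.4% of all genes) and 2 rose (7.41%, beside 15.5%), or 11 and 5 after median centring. In SF539 2 fell (7.41%, beside 4.01%) and 4 rose (14.8%, beside 5.80%), and with the SF539 arrays alone 1 of these, TRIM16, kept its call. TRIM14, an adaptor of antiviral signalling, changed by -2.75, TRIM21, a cytosolic antibody receptor, by -2.54, PML, the organiser of nuclear bodies, by -1.42 and TRIM5, a restriction factor of retroviruses, by -1.15 in SNB19. TRIM5 also fell by 0.45 in SF539. TRIM2 rose in both lines, by 0.86 and 0.39. Its call in SF539 was lost with the mean of its probe sets (0.20, limma adjusted p = 0.114). TRIM16 rose by 0.83 in SF539 and TRIM9, a neuronal family member, rose there by 0.87 but changed by -0.67 in SNB19. The TRIM9 call in SNB19 was lost without either scramble array (-0.67 and -0.68), and that in SF539 without scramble replicate 1 (0.71).

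**Figure D3:**
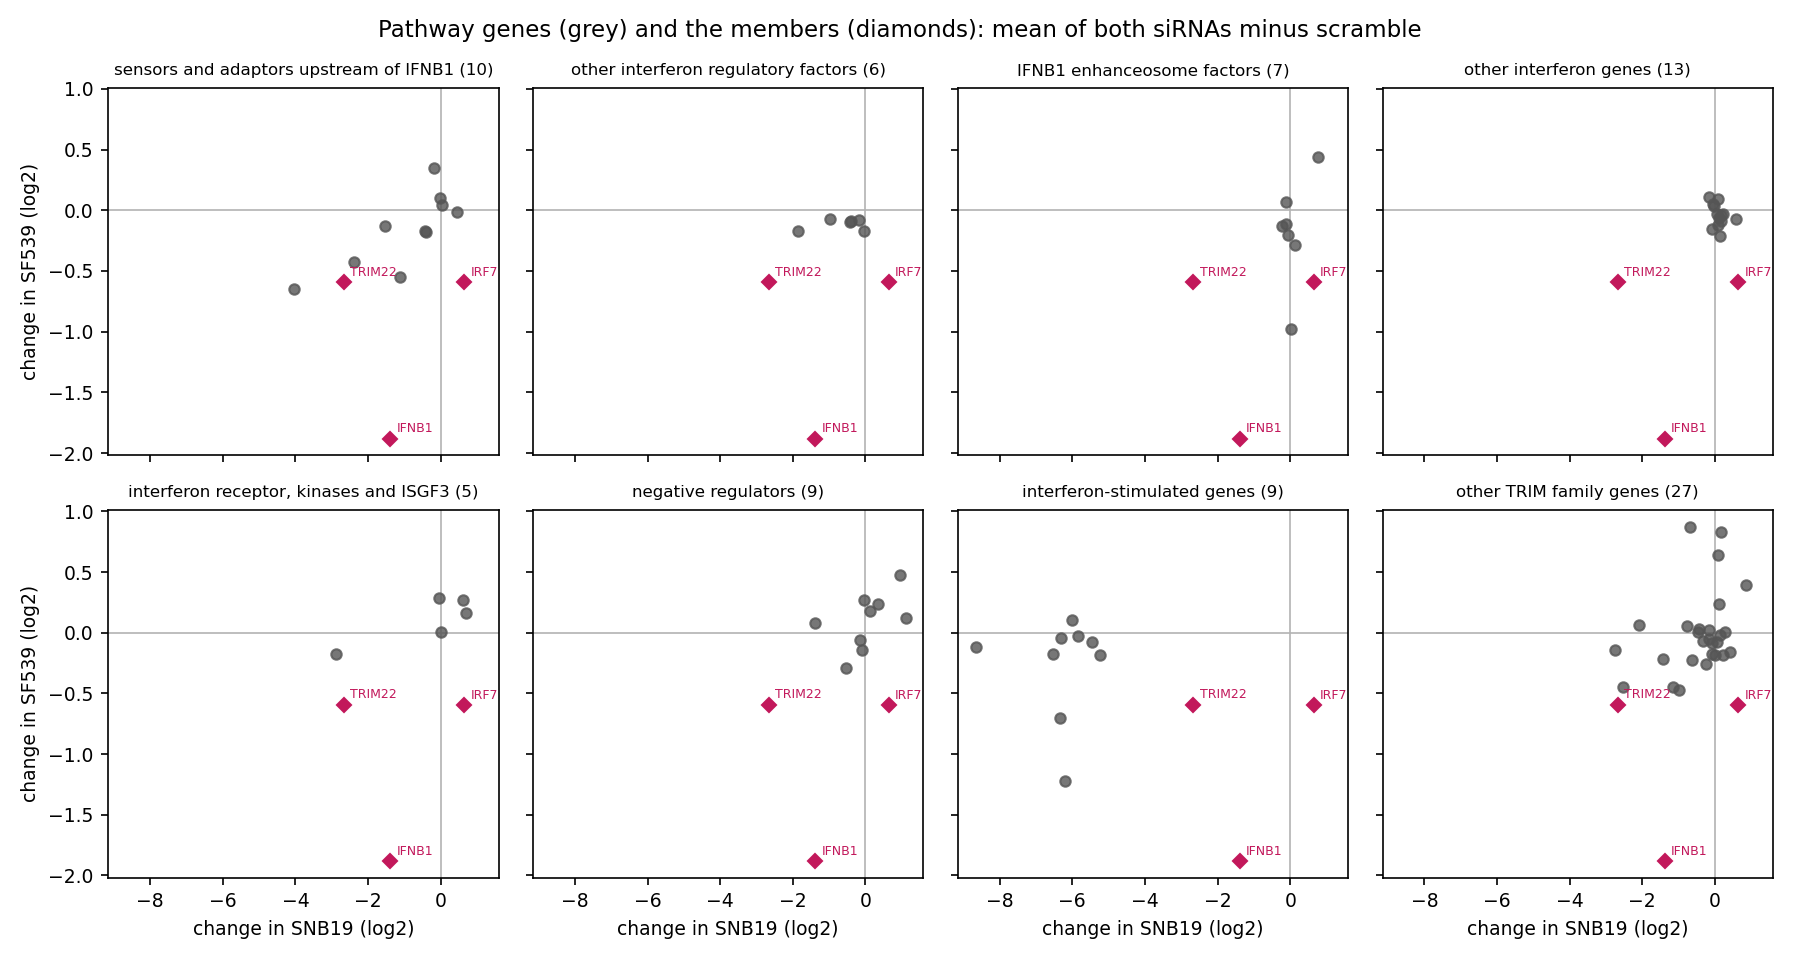
Change with the PARK2 siRNAs (mean of both minus scramble, log2) in SNB19 (horizontal axis) and SF539 (vertical axis) for the measured genes of each list (grey, number in the panel title) and for IFNB1, IRF7 and TRIM22 (diamonds, repeated in each panel). The interferon-stimulated genes lie between -8.66 and -5.23 in SNB19 and between -1.22 and 0.10 in SF539, and IFNB1 fell further in SF539 (-1.88) than any listed gene.

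The genes beside each gene on the chromosome, by RefSeq order and with a value, were read as a local comparison. Around IFNB1, MLLT3, a chromatin reader, changed by -1.19 in SNB19 (limma adjusted p = 9.22e-05) and by 0.34 in SF539, where it did not pass. The ribosomal protein gene RPS6 rose by 0.44 in SNB19, and DENND4C, IFNW1, IFNA21 and IFNA4 passed in neither line. Around IRF7, HRAS and RNH1 were 0.39 and 0.90 higher and RASSF7 was lower (-0.54) in SF539 with scramble, all far smaller than the 5.81 of IRF7. RASSF7 changed by -0.52 and TALDO1 by 0.31 in SNB19 with the PARK2 siRNAs. TRIM22 lies beside TRIM5, which fell in both lines (above), whereas HBE1, CCKBR, CAVIN3 and SMPD1 passed in neither line and HBBP1 rose by 0.28 in SNB19 (limma adjusted p = 0.0486).

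The genes whose values ran most like each of the 3 were taken by Pearson r over the 12 arrays, among 2516 genes whose highest and lowest group means differed by at least 1. The arrays share lines and treatments, so r describes the pattern of 6 groups and carries no test. For IFNB1 these were INHBA (0.915), an activin subunit, CXCL11 (0.902), an interferon-induced chemokine, KYNU (0.888), TRIM26 (0.877) and ELL2 (0.877), and 2 genes in all exceeded 0.9. CXCL11 read 5.55, 3.01 and 3.06 in SNB19 and 6.49, 3.48 and 4.68 in SF539 with scramble, siRNA#1 and siRNA#2. TRIM22 came 76th in that ranking.

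For IRF7 the nearest were STAM (0.997), SERPINB1, DLC1, GALNT3 and SLC43A3 (0.994), and 492 genes exceeded 0.9. Each of these was higher in all SF539 groups than in any SNB19 group. For TRIM22 they were HLA-F (0.995), HLA-G (0.993), TAP1 (0.992), DDIT3 (0.989) and IL15 (0.981), with 82 genes over 0.9. HLA-F and HLA-G are related class I genes that share sequence, TAP1 carries peptides to class I molecules, DDIT3 is a stress-induced transcription factor and IL15 a cytokine. With 6 group means in place of 12 arrays, SERPINE2 replaced ELL2 for IFNB1 and SP140L replaced IL15 for TRIM22. For IRF7, COL7A1 and PTPN3 replaced SERPINB1 and SLC43A3.

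**Figure D4:**
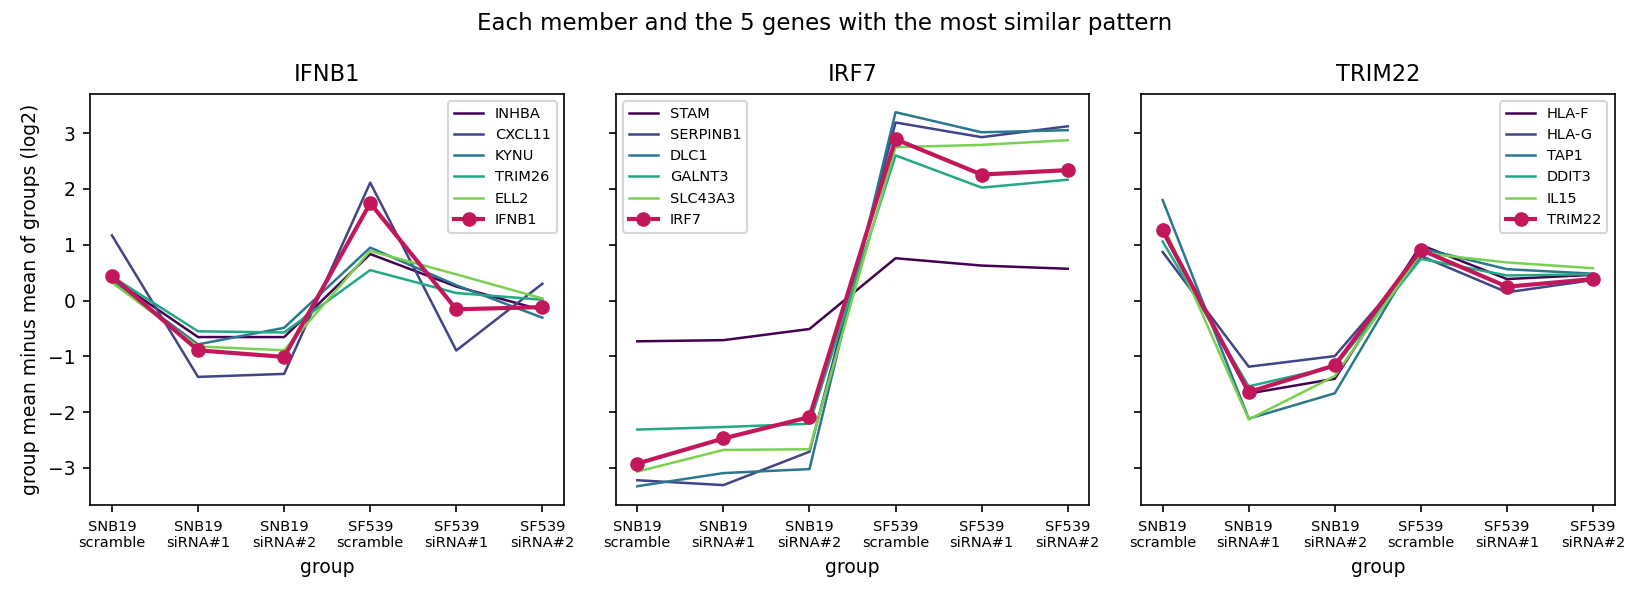
Group mean minus the mean over the 6 groups (log2, vertical axis) for each gene (thick line) and its 5 most similar genes by r over 12 arrays (thin lines); lines join groups only to guide the eye. IFNB1 peaks with scramble in both lines, IRF7 and its similar genes step up from SNB19 to SF539, and TRIM22 and its similar genes fall furthest with the PARK2 siRNAs in SNB19.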

How the data were processed

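Total RNA of 12 samples was measured on Affymetrix U133A 2.0 arrays. The authors deposited values on the log2 scale, and the submitters' processing notes list Partek. How background, normalization and summary were done, and the build, is not given in the sources used here. Of 16376 probe sets, 14038 carried 1 gene, 792 several and 1546 none, and only the first were named, 14028 of them through Entrez identifiers. The brightest probe set stood for each gene (8545 genes, 3361 with several).

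With limma 3.58.1 (R 4.3.3), all arrays entered a model of 6 groups, so that groups share 1 estimate of spread (6 residual and 3.65 prior degrees of freedom), with two-sided tests and Benjamini-Hochberg adjustment over all genes at 0.05, in 11 comparisons. The fit was tested on simulated data. Precision is limited by the number of arrays. The 3 genes and the pathway lists were chosen with earlier results of these data known.

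Named are the 3 genes, up to 4 genes with the smallest p from each list in either line, the 3 nearest measured genes on each side, and the 5 most correlated. Markers were those of glial cells, leukocytes, endothelium and epithelium, and the last pair averaged 4.09 to 4.33 and 4.02 to 4.29. Within that pair PECAM1 read 4.88 to 5.87, VWF 4.98 to 5.82, KRT5 4.84 to 5.02 and KRT8 5.19 to 6.11. CDH5, TEK, EPCAM and CDH1 read 2.54 to 4.10. VWF was 0.52 higher with the PARK2 siRNAs in SNB19 (limma adjusted p = 0.00208), and KRT8 changed by -0.37 in SF539 (limma adjusted p = 0.0187). RefSeq promoters (GRCh38.p14) were matched by symbol for IFNB1 of the 3 genes. PARK2 is not analysed here. Alternatives were a replicate block, array weights, a trended robust prior, fits to 1 line alone, median centring, quantile normalization, averaging or splitting the probe sets of a gene, dropping the dimmest 40% of genes, 6 group means for correlations, and leaving out each array, when the group's remaining array is taken to vary as the other groups do. Plots used matplotlib 3.10.9.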

Additional observations from a re-analysis of the deposited data

Results flagged for a closer look

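Of 49 genes named among the 3 and from the lists, the effect of the PARK2 siRNAs differed between SF539 and SNB19 for 27 (interaction term of the limma fit, adjusted p under 0.05), 22 with a positive and 5 with a negative difference, beside 19.1% of all genes. Most of the 49 were picked for a small p in either line, so that count was bound to be high and says nothing of the lists. Values are the SF539 effect minus the SNB19 effect on the log2 scale. Among the 3 genes these were TRIM22 (2.07) and IRF7 (-1.24). Among sensors, kinases and adaptors they were TLR3 (3.39), IFIH1 (1.97), IFI16 (1.39), MYD88 (0.59) and IKBKE (0.53). Among transcription factors and ISGF3 they were IRF9 (2.7), IRF1 (1.69), IRF2 (0.9) and HMGA1 (-0.99). Among interferon-stimulated genes they were IFI27 (8.54), BST2 (6.35), IFIT3 (6.12), OAS1 (5.64), ISG15 (5.04) and RSAD2 (4.97). Among negative regulators they were SOCS1 (1.46) and PTPN11 (-0.98), and the alpha interferon gene IFNA17 had -0.66 at values near background. Among the TRIM family they were TRIM14 (2.6), TRIM21 (2.09), TRIM9 (1.55), PML (1.2), TRIM5 (0.7), TRIM16 (0.65) and TRIM2 (-0.47). IFNB1 is not among them. IFIT3 read 4.58 to 4.70 in the SF539 groups. With siRNA#1 in SNB19, TLR3 (3.79), IFI27 (3.98), OAS1 (4.13) and RSAD2 (3.45) were near or below the lower quartile of the arrays. Their differences between lines are bounded by background. IRF7 averaged 3.56 with scramble in SNB19, also below the lower quartile, so its difference rests in part on values near background.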

How the results depend on the processing

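Counted over each of the 3 genes in 11 comparisons and the counts of the lists, no alternative reversed a direction of a called result. The mean effects on IFNB1 and TRIM22 in both lines kept their calls under every alternative that gave a value and without each array: IFNB1 from -1.59 to -1.18 in SNB19 and from -2.28 to -1.48 in SF539 without 1 array, TRIM22 from -2.69 to -2.64 and from -0.66 to -0.52. IFNB1 has no value with the dimmest 40% of genes left out. With the arrays of 1 line alone, the SF539 calls of IFNB1 with siRNA#1 (-1.90) and of TRIM22 with siRNA#1 (-0.66) and siRNA#2 (-0.52) were lost, and the lists in SF539 had 1 gene higher and 2 lower. TRIM22 with siRNA#2 in SF539 was also lost with array weights (-0.52). IRF7 in SF539 was called with quantile normalization (-0.62), median centring (-0.66), without the dimmest genes (-0.59) and with a trended robust prior (-0.59). Median centring ended the TRIM22 call between lines with scramble (-0.18) and gave 14 list genes higher in SNB19, and the mean of probe sets gave 3 list genes higher in SF539. Without 1 array, calls were lost at some arrays for IRF7 in SNB19 (0.42 to 0.86), IRF7 with siRNA#2 in SNB19 (0.62 to 1.05), TRIM22 between the siRNAs in SNB19 (0.44 to 0.51), TRIM22 between lines with scramble (-0.42 to -0.28), TRIM22 with siRNA#1 in SF539 (-0.73 to -0.59) and IFNB1 with siRNA#1 in SF539 (-2.30 to -1.50), and list genes in SF539 numbered 2 to 10 higher and 3 to 11 lower. The cause was not tested. All genes called numbered 2806 in SNB19 (1741 to 3551 without 1 array) and 839 in SF539 (371 to 1973 without 1 array, and 165 with 1 line alone).

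Replicate numbers did not pair the arrays: deviations of same-numbered arrays of a line correlated with r from -0.18 to 0.11 over 6 pairs, 1 of them over 0.1. With the replicate number as a block, 2761 genes were called in SNB19 and 779 in SF539, and no call on the 3 genes changed, with IFNB1 at -1.39 and -1.88.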
